A study of Homo sapiens with 2 samples.

Results

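Integrins, laminins and their basement membrane partners were followed in 2 RNA-seq libraries of the line H460, cultured cells of a human large-cell carcinoma of the lung. The set holds 40 of the 22965 Ensembl gene IDs in the count tables, all of them protein-coding and taken by a rule on their symbols. It comprises 16 integrin alpha subunits, 7 integrin beta subunits, 12 laminin chains and the 5 genes NID1, NID2, AGRN, HSPG2 and DAG1. ITGA8 and ITGB6 also fit the choice of symbols but were not analysed here. Of the 40 genes, 32 had a mean of at least 10 counts over both libraries and are described by ratios, and the other 8 are given by their counts. A ratio below is the log2 of the CPM in the PKP2 library divided by that in the vector library, CPM being counts scaled to library size.

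One library came from H460 cells in which the pSin-puro vector delivered PKP2, labelled as overexpression of PKP2, and the other from H460 cells with the vector, labelled as control. Both cultures were at passage 5 in DMEM with 10% FBS, and whether either was a pool or a single clone is not given in the sources used here. The comparison was made to look for genes downstream of PKP2, which encodes the desmosomal plaque protein plakophilin 2. With 1 library per group, no difference below has a replicate check or a p-value. Each compares these 2 libraries, and the 95% intervals cover counting error only.

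The PKP2 library held 20319137 counts and the vector library 23513304. PKP2 itself had 1330 counts in the PKP2 library against 181 in the vector library, a log2 ratio of 3.11 (interval 2.89 to 3.35), in the direction of the labels. Of the epithelial markers, KRT8 stood at 465 CPM in the PKP2 library and 697 CPM in the vector library, and KRT18 at 188 CPM in the PKP2 library and 251 CPM in the vector library. KRT19 was higher, at 578 CPM in the PKP2 library and 274 CPM in the vector library. EPCAM had 16 counts in the PKP2 library and 28 in the vector library, and CDH1 was not analysed here. The 4 measured fibroblast markers summed to 30.3 CPM in the PKP2 library and 52.3 CPM in the vector library, led by COL3A1 with 333 counts in the PKP2 library and 973 in the vector library. PDGFRB among them went the other way, at 10.3 CPM in the PKP2 library and 4.68 CPM in the vector library, and LUM was at 1.09 CPM in the PKP2 library and 1.01 CPM in the vector library. The endothelial markers VWF and KDR were each at 0 counts in the PKP2 library and 2 in the vector library. Of the leukocyte markers, CD14 alone was measured, with 23 counts in the PKP2 library and 90 in the vector library. The 3 smooth muscle markers summed to 18.2 CPM in the PKP2 library and 25.5 CPM in the vector library. The part of these markers in the ratios below was not tested.

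Integrins are receptors made of 1 alpha and 1 beta subunit that tie the extracellular matrix to the cytoskeleton. The alpha subunit largely sets which ligand is bound: collagens, laminins, or proteins carrying the Arg-Gly-Asp (RGD) sequence. Laminins are trimers of 1 alpha, 1 beta and 1 gamma chain, named by the numbers of their chains, and they form the first sheet of a basement membrane. Nidogens link that sheet to the type IV collagen network, the heparan sulfate proteoglycans perlecan and agrin bind to it, and dystroglycan anchors it to cells. In lung epithelium these genes set the contact between the cells and the basement membrane under them.

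Among the genes averaging 100 counts or more, ITGA6, ITGA1, LAMA1, LAMA3, ITGAV and NID2 were about 1.5 to 1.8 times as high in the PKP2 library as in the vector library. ITGA2, NID1, LAMC3 and AGRN were lower by 1.6 to 2.0 times. With the correction for GC content described next, AGRN moved to a log2 ratio of -0.37 and LAMC3 to -0.21. Among the higher genes the same correction gave 0.70 for ITGA6, 0.53 for ITGA1 and 0.35 for ITGAV. It gave 0.76 for LAMA1, 0.65 for LAMA3 and 0.65 for NID2. ITGA4 was 4.47-fold lower from few counts. The 3 genes with the highest levels per transcript length, LAMC1, ITGB1 and LAMB1, were 1.24 to 1.36 times as high. Their log2 ratios with the correction were 0.31 for LAMC1, 0.21 for ITGB1 and 0.46 for LAMB1. Of the 32 counted genes, 1 was higher by 2-fold or more in the PKP2 library, against 2.46% of the 15991 genes counted at this minimum, and 3 were lower by as much, against 4.61%. At 3-fold the counts were 0, against 0.713%, and 1 (ITGA4), against 1.57%. At 1.5-fold, 7 of the 32 genes (21.9%) were higher, against 6.87% of all counted genes, and 7 (21.9%) were lower, against 12.9%. With that correction 8 were higher at 1.5-fold, against 6.26%, and 4 lower, against 8.72%. The median log2 ratio of the 32 genes was 0.04, beside -0.03 over all counted genes, with the middle of the set spread from -0.47 to 0.49 (quartiles), beside -0.33 to 0.22. Before the correction the set thus had a median near 0 with members on both sides. With it the median was 0.20 (quartiles -0.12 to 0.55), beside -0.007 (-0.21 to 0.17) over all counted genes.

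The ratios of these libraries went down with the GC content of the transcript. Across 11610 genes averaging 100 counts or more the Spearman correlation was -0.61, and across the 24 genes of the set at that depth it was -0.57. All genes of a library share its depth and preparation, so both are descriptions, and what lies behind the trend was not tested. The 12 of these 24 genes with the lower GC content (37.8% to 51.7%) had a median ratio of 0.43. The 12 with the higher GC content (52.0% to 67.6%) had a median of -0.19. A smooth curve over all genes at this depth stood at 0.13 at 43% GC and at -0.31 at 60% GC. A ratio with the GC correction, in which that curve is subtracted, is therefore given beside the genes of the set that it moves beyond their counting interval or across 0. It put 1 gene of the set at least 2-fold higher, against 2.34% of all counted genes, and 2 at least 2-fold lower, against 3.47%. How the 2 ends of the set differ in composition is shown by coding stretches of 60 bases, each chosen for a GC content close to that of its whole transcript, with G and C in capitals, from AGRN (bases 109 to 168 of the coding sequence; 67.6% GC in the transcript) and ITGB8 (bases 199 to 258; 37.8%), both from GENCODE release 29.
AGRN: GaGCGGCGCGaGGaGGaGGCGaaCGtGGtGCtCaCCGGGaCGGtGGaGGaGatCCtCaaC
ITGB8: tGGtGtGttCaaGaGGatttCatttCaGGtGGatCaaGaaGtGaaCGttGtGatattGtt

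**Figure D1:**
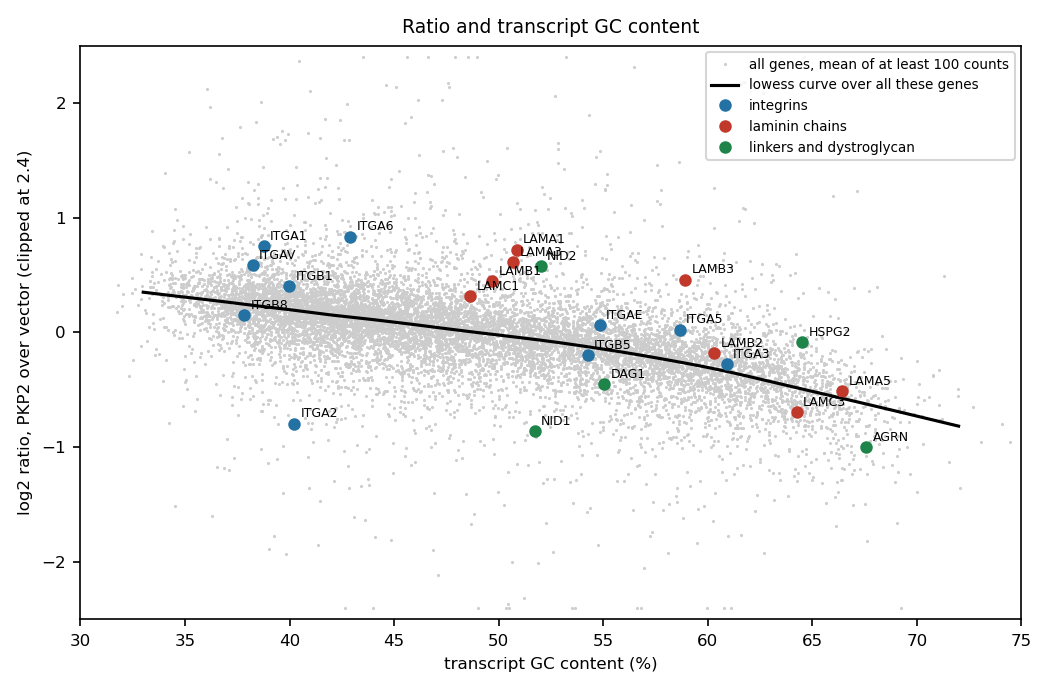
Log2 ratio of the PKP2 library over the vector library against transcript GC content in percent, for genes averaging 100 counts or more; grey points are all genes, the line is their lowess curve and coloured points are genes of the set. AGRN (67.6% GC) and LAMA5 (66.4%) lie at the low end of the curve, while ITGA2 and NID1 lie well under it and LAMA1, NID2 and LAMB3 above it.

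Laminin alpha chains, which carry most of the cell-binding sites, differed in direction. LAMA1, the alpha chain of laminin-111, had 11506 counts in the PKP2 library and 8225 in the vector library, a log2 ratio of 0.72 (interval 0.68 to 0.76) and 0.76 with the GC correction. LAMA5, the alpha chain of laminin-511 and laminin-521 in adult epithelial basement membranes, had 4560 counts in the PKP2 library and 7676 in the vector library, a ratio of -0.51 (-0.57 to -0.46). With the GC correction LAMA5 stood at 0.06, so its lower raw value was close to that of other genes of its GC content. Exons of LAMA5 overlap 244 bases of ADRM1 on the opposite strand, which itself had a ratio of -0.45 and 0.03 with the correction. Whether the counting used strand is not given, so reads from within such an overlap cannot be told apart. This overlap makes up 1.71% of the exonic bases of LAMA5. LAMA3, the alpha chain of the hemidesmosomal laminin-332, had 443 counts in the PKP2 library and 341 in the vector library, a ratio of 0.61 (0.41 to 0.82). LAMA2, the chain of muscle and nerve, had 18 counts in the PKP2 library and 12 in the vector library, and its interval of -0.31 to 2.01 takes in 0. LAMA4, a chain of blood vessels and mesenchyme, had 11 counts in the PKP2 library and 4 in the vector library, under the minimum.

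The ratio between the alpha chains differed between the libraries. Of the counts of LAMA1 and LAMA5 together, LAMA1 took 71.6% (Clopper-Pearson 95% interval 70.9% to 72.3%) in the PKP2 library, against 51.7% (50.9% to 52.5%) in the vector library. Per length of transcript, LAMA1 stood at 59.2 CPM per kb in the PKP2 library and 35.9 in the vector library, and LAMA5 at 19.8 in the PKP2 library and 28.3 in the vector library. LAMA1 was thus the higher of the pair in both libraries. These shares and levels carry no GC correction, with which the ratios were 0.76 for LAMA1 (50.9% GC) and 0.06 for LAMA5 (66.4% GC).

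Of the beta chains, LAMB1, the widespread form, had 9237 counts in the PKP2 library and 7988 in the vector library, a ratio of 0.45 (0.40 to 0.49) and 0.46 with the GC correction. LAMB2, the form of the kidney filter and the neuromuscular junction, had 2460 counts in the PKP2 library and 3284 in the vector library. Its ratio of -0.18 (-0.26 to -0.10) turned to 0.14 with the GC correction. LAMB3, the beta chain of laminin-332, had 350 counts in the PKP2 library and 300 in the vector library, a ratio of 0.46 (0.23 to 0.69) and 0.73 with the correction. LAMB4 was at least 2-fold lower, at -1.57, but had only 6 counts in the PKP2 library and 21 in the vector library, and its interval runs from -3.17 to -0.21.

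LAMC1, the gamma chain of most laminins, had the most counts of the set, 32560 in the PKP2 library and 30860 in the vector library. Its ratio was 0.31 (0.29 to 0.34), with or without the GC correction. LAMC3, a gamma chain with a limited distribution, had 612 counts in the PKP2 library against 1169 in the vector library, a ratio of -0.70 (-0.84 to -0.55). With the GC correction LAMC3 stood at -0.21.

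Set out as trimers, the 3 chains of laminin-111 all had intervals above 0, with ratios from 0.31 to 0.72. In laminin-523, made of LAMA5, LAMB2 and LAMC3, the 3 ratios lay between -0.70 and -0.18 with intervals below 0, and between -0.21 and 0.14 with the GC correction. Per length of transcript LAMC1 exceeded every other laminin chain, at 205 CPM per kb in the PKP2 library and 165 in the vector library. The 5 alpha chains together reached 81.2 CPM per kb in the PKP2 library and 65.6 in the vector library, and the 4 beta chains 106 in the PKP2 library and 86.3 in the vector library. The lowest chain of laminin-111 was LAMA1 in both libraries. These are transcript levels without the GC correction and say nothing of how many trimers were assembled.

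**Figure D2:**
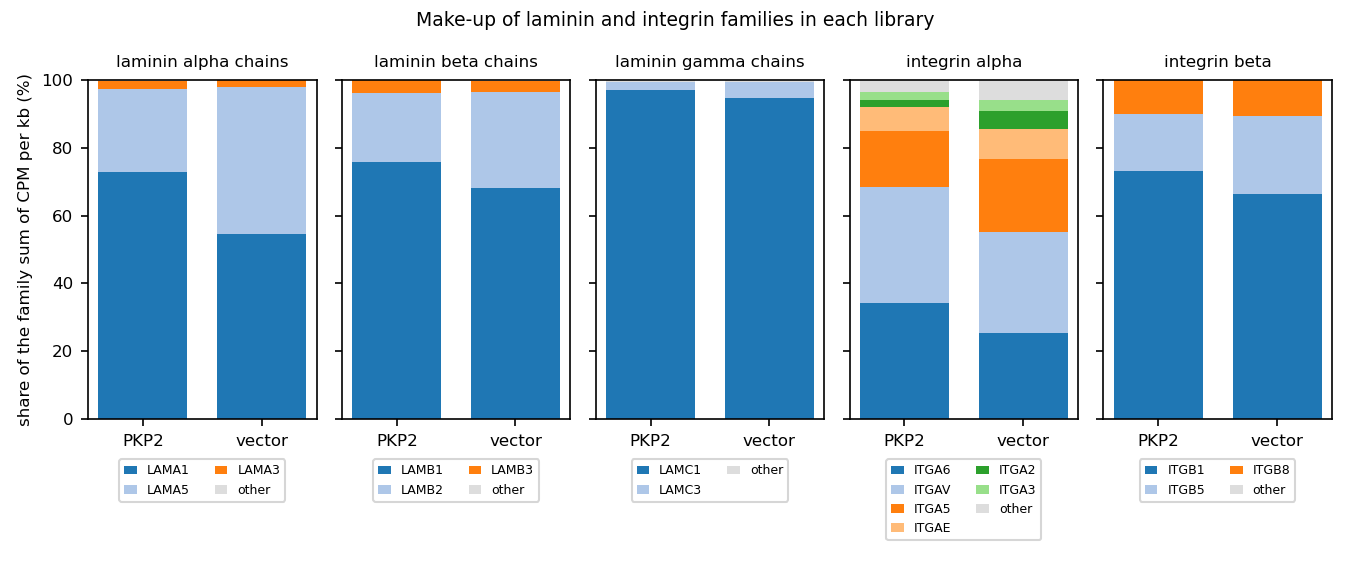
Share of each gene, in percent, in the summed CPM per kb of its family, for the PKP2 library (left bars) and the vector library (right bars); genes under 2% in both libraries are drawn together as other. LAMA1 makes up 72.8% of the laminin alpha chains in the PKP2 library and 54.7% in the vector library, and LAMC1 97.1% of the gamma chains in the PKP2 library and 94.8% in the vector library. No GC correction was applied to these shares.

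Promoter sequences from RefSeq (GRCh38.p14) were at hand for 28 of the 40 genes. Those of LAMB1, LAMC1 and NID2 are shown because these genes were higher in the PKP2 library, and their products lie side by side in the basement membrane. Their intervals were above 0, and so were their ratios with the GC correction, for which no interval was computed. LAMA3 and LAMB3 also had such ratios and a promoter at hand but are not shown. Each sequence shown is the 250 bases before the annotated start, on the gene's strand, with the GC box GGGCGG or its reverse complement CCGCCC in capitals where it occurs. They come from LAMB1 (chr7:108003162-108003411, minus strand), LAMC1 (chr1:183023170-183023419, plus strand) and NID2 (chr14:52069060-52069309, minus strand).
LAMB1: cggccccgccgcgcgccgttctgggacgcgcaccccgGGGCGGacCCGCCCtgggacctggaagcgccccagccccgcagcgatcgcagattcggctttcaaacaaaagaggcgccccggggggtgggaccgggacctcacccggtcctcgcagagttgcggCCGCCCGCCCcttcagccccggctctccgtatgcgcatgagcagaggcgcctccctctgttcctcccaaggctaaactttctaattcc
LAMC1: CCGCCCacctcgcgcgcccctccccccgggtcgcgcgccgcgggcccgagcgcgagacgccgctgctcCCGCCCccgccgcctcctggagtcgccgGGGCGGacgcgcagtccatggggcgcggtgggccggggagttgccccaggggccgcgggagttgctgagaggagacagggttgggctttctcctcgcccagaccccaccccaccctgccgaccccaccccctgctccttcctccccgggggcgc
NID2: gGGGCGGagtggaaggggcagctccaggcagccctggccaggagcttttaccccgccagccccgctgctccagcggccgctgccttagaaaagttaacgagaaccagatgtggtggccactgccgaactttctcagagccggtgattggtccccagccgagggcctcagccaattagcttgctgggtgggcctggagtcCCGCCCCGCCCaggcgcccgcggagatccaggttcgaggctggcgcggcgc
The letters GGGCGG were found, on either strand and counting overlaps, 4 times before LAMB1 and 3 times each before LAMC1 and NID2, and in 42.6% of 35116 promoters of this length. They were in 21 of the 36 promoters found for the set. TATAAA, searched on both strands, was in none of the 3 and in 10.7% of all promoters. CCAAT, on both strands, occurred 2 times before NID2 and in 32% of all promoters. These are matches of letters only.

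Among the integrin alpha subunits, those that bind laminin differed. ITGA6, which pairs with beta1 or with beta4, had 3510 counts in the PKP2 library and 2321 in the vector library, a ratio of 0.83 (0.76 to 0.91) and 0.70 with the GC correction. ITGA3, which pairs with beta1 and prefers laminin-332 and laminin-511, had 188 counts in the PKP2 library and 269 in the vector library. Its ratio of -0.28 (-0.56 to -0.01) stood at 0.06 with the correction. ITGA7, the laminin receptor of muscle, had 29 counts in the PKP2 library and 39 in the vector library, a ratio of -0.19 with an interval that takes in 0 and 0.12 with the correction. Of the counts of ITGA6 and ITGA3 together, ITGA6 took 94.9% (94.2% to 95.6%) in the PKP2 library, against 89.6% (88.4% to 90.8%) in the vector library. This share carries no GC correction, with which ITGA6 stood at 0.70 and ITGA3 at 0.06.

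The collagen receptors went apart. ITGA2 had 322 counts in the PKP2 library against 659 in the vector library, a ratio of -0.80 (-0.99 to -0.60) and -0.99 with the GC correction, close to 2-fold. ITGA1 had 336 counts in the PKP2 library against 235 in the vector library, a ratio of 0.75 (0.51 to 1.00) and 0.53 with the correction. Exons of ITGA1 overlap 475 bases of PELO on the same strand. PELO held more counts, 1414 in the PKP2 library and 1646 in the vector library, with a ratio of 0.02, and the sum of both genes had a ratio of 0.13. Of the counts of ITGA1 and ITGA2 together, ITGA1 took 51.1% (47.2% to 54.9%) in the PKP2 library and 26.3% (23.4% to 29.3%) in the vector library. ITGA10, a receptor of cartilage, had 29 counts in the PKP2 library and 37 in the vector library and ITGA11, a receptor of fibroblasts, 20 in the PKP2 library and 18 in the vector library, both with intervals that take in 0.

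Of the RGD-binding subunits, ITGAV, which pairs with several beta subunits, had 4343 counts in the PKP2 library and 3408 in the vector library, a ratio of 0.59 (0.52 to 0.65) and 0.35 with the GC correction. ITGA5, the alpha subunit of the main fibronectin receptor, had 1330 counts in the PKP2 library and 1543 in the vector library, a ratio of 0.02 (-0.08 to 0.13), and 0.28 with the correction. ITGA2B, the platelet subunit, had 36 counts in the PKP2 library and 70 in the vector library, a ratio of -0.72 (-1.35 to -0.12) and -0.37 with the correction.

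ITGA4, which pairs with beta1 or beta7 and binds VCAM1 and fibronectin, had the lowest ratio of the 32 genes. It had 23 counts in the PKP2 library against 121 in the vector library, a ratio of -2.16 (-2.87 to -1.51) and -2.27 with the GC correction. Its level was low in both libraries, 0.27 CPM per kb in the PKP2 library and 1.22 in the vector library. No stretch of 31 bases of ITGA4 occurs in another gene of the tables. Its relative ITGA9 had 5 counts in the PKP2 library and 10 in the vector library. Of the subunits known from leukocytes, ITGAE had 498 counts in the PKP2 library and 563 in the vector library, a ratio of 0.06 (-0.12 to 0.24). ITGAE overlaps HASPIN on the opposite strand by 427 bases, and HASPIN had 504 counts in the PKP2 library and 581 in the vector library. ITGAL had 0 counts in the PKP2 library and 3 in the vector library, ITGAM 2 in the PKP2 library and 4 in the vector library, and ITGAX 2 in the PKP2 library and 0 in the vector library. ITGB2, the beta subunit they share, had 3 in the PKP2 library and 7 in the vector library. At this depth none of these 4 genes allows a ratio.

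ITGB1, the beta subunit of most integrins, had 11645 counts in the PKP2 library and 10362 in the vector library. Its ratio was 0.40 (0.37 to 0.44) and 0.21 with the GC correction. The processed pseudogene ITGB1P1 on chromosome 19 had 2723 counts in the PKP2 library and 2249 in the vector library, a ratio of 0.51 (0.43 to 0.59). In GENCODE release 29 its 609 bases are identical, with 0 differences and 0 gaps, to the last 609 coding bases of ITGB1 on chromosome 10. A read from within this stretch cannot be told apart between the gene and the pseudogene by its sequence. ITGB1P1 held 19.0% of the counts of both in the PKP2 library and 17.8% in the vector library, beside the 16.1% of the ITGB1 transcript that the stretch makes up. The sum of both genes had 14368 counts in the PKP2 library and 12611 in the vector library, a ratio of 0.42 (0.39 to 0.46). The last 120 of the shared bases encode much of the cytoplasmic tail and are shown with the in-frame matches to AATCCNNNNTAT in capitals. The 2 matches encode the NPxY motifs of the tail, the sites where talin and kindlin bind.
ITGB1 and ITGB1P1: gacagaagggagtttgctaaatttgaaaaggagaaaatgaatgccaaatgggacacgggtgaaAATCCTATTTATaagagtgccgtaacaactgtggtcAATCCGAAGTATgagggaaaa

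The other beta subunits with many counts pair with alphaV. ITGB5, a vitronectin receptor subunit, had 3069 counts in the PKP2 library and 4152 in the vector library, a ratio of -0.20 (-0.27 to -0.13) and -0.07 with the GC correction. ITGB8, which with alphaV activates latent TGF-beta, had 3615 counts in the PKP2 library and 3831 in the vector library. Its ratio of 0.15 (0.09 to 0.22) turned to -0.09 with the correction. ITGB4, the hemidesmosome subunit that pairs with alpha6, was the 1 gene of the set at least 2-fold higher, at 1.13, but its 13 counts in the PKP2 library and 7 in the vector library leave an interval of -0.30 to 2.70. ITGB3, which pairs with alphaV or with the platelet subunit ITGA2B, had 5 counts in the PKP2 library and 4 in the vector library. ITGB7, a leukocyte partner of alpha4 and alphaE, had 4 counts in the PKP2 library and 2 in the vector library. Of the alpha6 partners, ITGB1 stood at 153 CPM per kb in the PKP2 library and 115 in the vector library, and ITGB4 at 0.11 in the PKP2 library and 0.05 in the vector library.

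**Figure D3:**
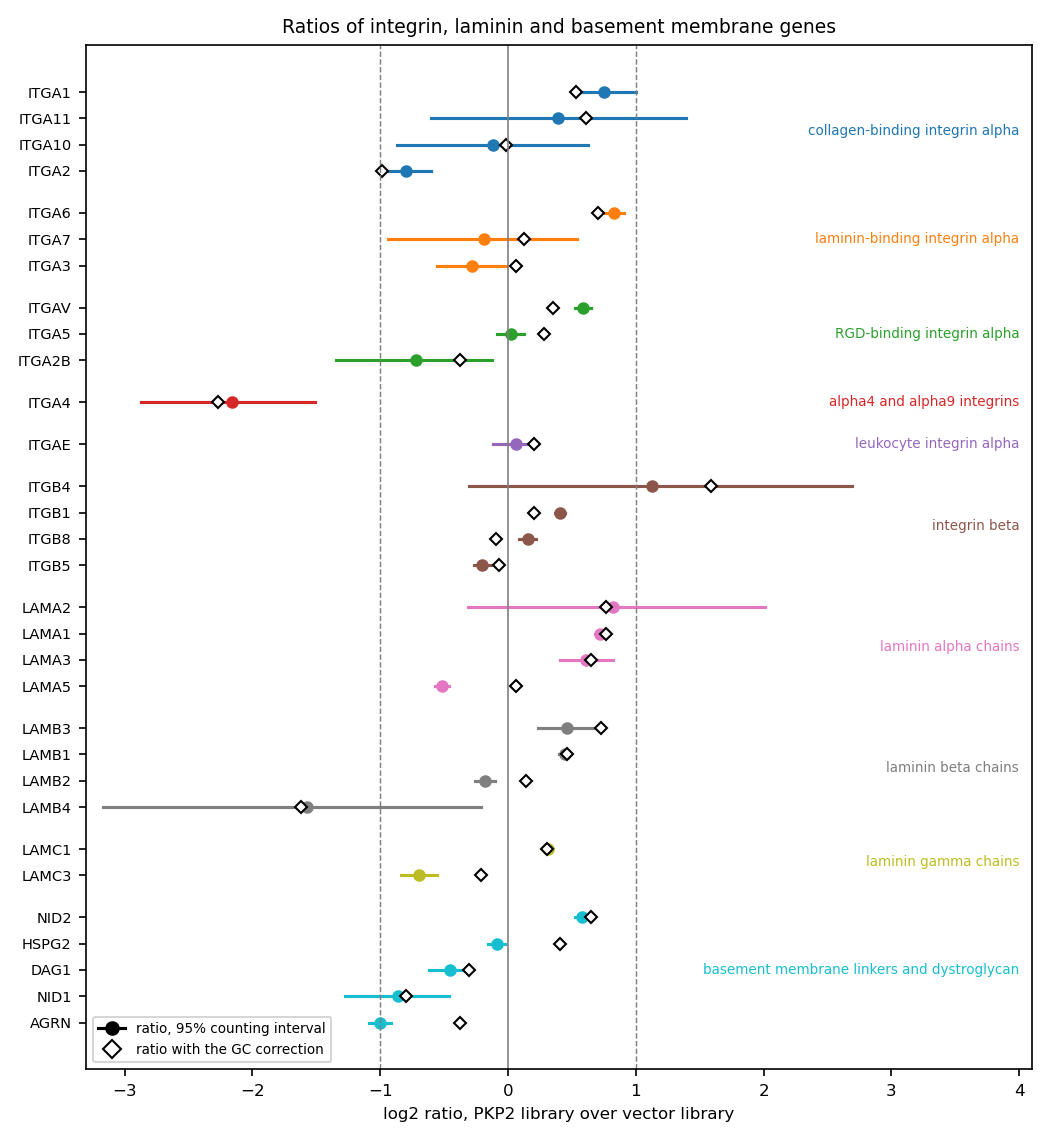
Log2 ratio of the PKP2 library over the vector library for counted genes of the set, grouped by role; filled points with bars are ratios with 95% counting intervals, open diamonds are ratios with the GC correction, and dashed lines mark 2-fold. ITGA4 lies at -2.16, while most wide bars belong to genes with few counts such as ITGB4 and LAMB4.

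Per length of transcript the order of the set was LAMC1, ITGB1, LAMB1, LAMA1, NID2, ITGB5, ITGA6 and ITGAV in the PKP2 library, and LAMC1, ITGB1, LAMB1, ITGB5, NID2, LAMA1, LAMA5 and LAMB2 in the vector library. Among these 8, the neighbours whose counting intervals overlap were ITGA6 (31 CPM per kb) and ITGAV (30.7 CPM per kb, 29.8 to 31.6) in the PKP2 library, and NID2 (36.5, 35.4 to 37.7) and LAMA1 (35.9, 35.1 to 36.7) in the vector library. ITGA6 was at 17.4 CPM per kb in the vector library, under ITGAV at 20.4 and near ITGA5, which was at 14.9 in the PKP2 library and 14.6 in the vector library. The integrin alpha subunits together reached 90.2 CPM per kb in the PKP2 library and 68.5 in the vector library, and the beta subunits 208 in the PKP2 library and 174 in the vector library. These levels, orders and sums carry no GC correction. With it the log2 ratios were 0.70 for ITGA6, 0.35 for ITGAV, 0.21 for ITGB1 and -0.07 for ITGB5. They were 0.76 for LAMA1, 0.65 for NID2 and 0.06 for LAMA5.

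**Figure D4:**
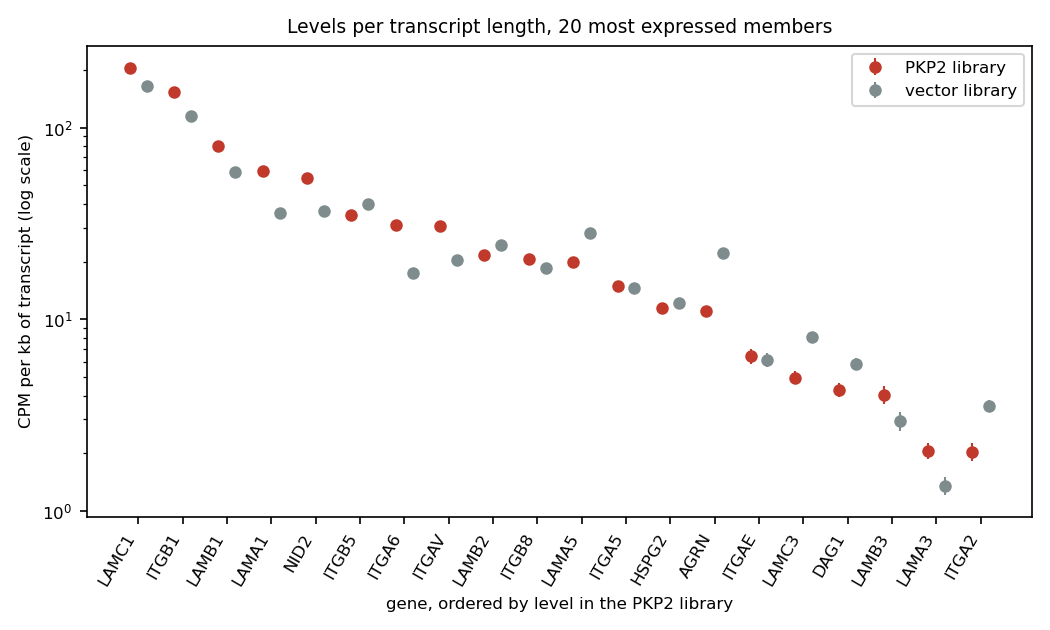
Level of the 20 most expressed genes of the set in CPM per kb of transcript, on a log scale, ordered by the PKP2 library (left point of each pair, with the vector library to its right); bars are 95% counting intervals. LAMC1 and ITGB1 are above 100 CPM per kb in both libraries, and LAMA1, NID2, ITGA6 and ITGAV stand higher in the PKP2 library while LAMA5 and AGRN stand lower. No GC correction was applied to these levels, and with it the log2 ratio was 0.06 for LAMA5 and -0.37 for AGRN.

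Of the linkers, the 2 nidogens differed in direction. NID2 had 5290 counts in the PKP2 library and 4170 in the vector library, a ratio of 0.58 (0.52 to 0.64) and 0.65 with the GC correction. NID2 overlaps RTRAF on the opposite strand by 1915 bases, and RTRAF had 2636 counts in the PKP2 library and 2952 in the vector library, a ratio of 0.07. The sum of both genes had a ratio of 0.39. NID1 had 76 counts in the PKP2 library against 163 in the vector library, a ratio of -0.86 (-1.28 to -0.46) and -0.80 with the correction. NID2 took 98.6% (98.2% to 98.9%) of the counts of both nidogens in the PKP2 library and 96.2% (95.6% to 96.8%) in the vector library.

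AGRN, which encodes agrin, had 1633 counts in the PKP2 library against 3849 in the vector library, a ratio of -1.0 (-1.08 to -0.92). It lay at the 2-fold threshold, within 2-fold under DESeq2 or upper-quartile scaling, and, with the highest GC content of the set, stood at -0.37 with the GC correction. Among the 24 genes of the set averaging 100 counts or more, AGRN was the 1 that was at least 2-fold lower, against 1.8% of all genes at that depth, and none of the 24 was at least 2-fold higher, against 1.37%. HSPG2, which encodes perlecan, had 3286 counts in the PKP2 library and 4110 in the vector library. Its ratio of -0.09 (-0.15 to -0.02) turned to 0.41 with the correction. DAG1, which encodes both subunits of dystroglycan, had 502 counts in the PKP2 library and 809 in the vector library, a ratio of -0.45 (-0.62 to -0.29) and -0.30 with the correction.

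By counting error alone, 11 of the 32 genes had an interval above 0 and 13 with one below 0, against 25.9% and 28.8% of all counted genes, and 8 intervals took in 0. With ratios above 0 in 17 of the 32 genes, the set stood near the 47.3% of all counted genes. With the GC correction 21 were above 0, against 48.6%, among them 9 of the 11 counted laminin chains.

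Further genes of the pathway were counted in lists by role. Of 9 measured basement membrane collagen genes, none was higher by 2-fold or more, against 2.46% of all counted genes, and 2 were lower by as much, against 4.61%. The GC correction left 1 at least 2-fold lower, against 3.47%, and moved the median ratio of the list, -0.11, to -0.06. The 2 genes were COL15A1, with 5 counts in the PKP2 library and 22 in the vector library (-1.90; -1.75 with the correction), and COL18A1, with 67 counts in the PKP2 library and 175 in the vector library (-1.15; -0.56 with the correction). COL7A1, the collagen of anchoring fibrils, was at -0.79 (412 counts in the PKP2 library and 837 in the vector library) and -0.28 with the correction. The type IV collagen genes, COL4A1 to COL4A6, lay between -0.30 (COL4A2) and -0.01 (COL4A6). With the correction they lay between -0.07 (COL4A3) and 0.12 (COL4A6). These genes were named after their values were seen. Of 19 counted genes for integrin activators and adaptors, 1 was at least 2-fold higher and none lower (median 0.03; 0.12 with the correction), beside the same 2.46% and 4.61% of all counted genes. It was LIMS1, at 2.43, whose product joins integrin-linked kinase to the actin cytoskeleton, and it shares 28.2% of its stretches of 31 bases with other genes. CD47, an integrin-associated receptor, was at 0.51 and 0.36 with the correction, and CD151, a tetraspanin partner of the laminin-binding integrins, at 0.50 and 0.94 with the correction.

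The hemidesmosome list holds ITGA6, ITGB4 and CD151, and beside them DST and PLEC, which encode the plakins that tie beta4 to keratin filaments. DST had 18096 counts in the PKP2 library and 15185 in the vector library, a ratio of 0.49 and 0.34 with the correction, and PLEC 6386 in the PKP2 library and 9227 in the vector library, a ratio of -0.29 that turned to 0.30 with the correction. DST and PLEC were named after their values were seen. Of 24 counted genes of the dystroglycan complex and its glycosylation, 1 was at least 2-fold higher, against 2.46% of all counted genes, and 1 lower, against 4.61%, with a median of 0.02. They were the sarcoglycan gene SGCE (18 counts in the PKP2 library and 3 in the vector library; 2.82, interval 1.05 to 5.23) and SSPN, which encodes sarcospan (6 counts in the PKP2 library and 19 in the vector library; -1.43, interval -3.04 to -0.05).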

How the data were processed

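RNA libraries were prepared by TruSeq chemistry, per the labels' protocols. Bowtie 0.12.2 and the builds GRCh37 and hg19 are named in the submitters' processing notes, and neither the counting program nor its annotation or use of strand is given in the sources used here. As deposited by the authors, the files hold raw counts by Ensembl ID, whole numbers but for a decimal in 1 damaged row, so they are classed as estimated counts. That row and another without a value (2 in each file) were left out.

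CPM used library totals times edgeR TMM factors (0.991 PKP2, 1.01 vector; edgeR 4.0.16, R 4.3.3). Log2 ratios had no pseudocount and exact binomial (Clopper-Pearson) 95% intervals, and levels had Poisson intervals. A test needs more than 1 library per group, so none was run. GC content, length, exon overlaps and shared stretches of 31 bases came from GENCODE release 29 (APPRIS principal transcript, otherwise the longest), looked up by gene ID because its build differs. The GC correction subtracted a lowess curve (fraction 0.3, means of at least 100 counts; statsmodels 0.14.6). Steps were tested on simulated data. Genes, lists and thresholds were chosen with earlier results of these data known. The genes of the set are named, except 1 that is counted in the totals but not reported here, and of the other lists up to 3 counted genes with ratios farthest from 0. Alternatives included DESeq2 1.42.0 size factors.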

Additional observations from a re-analysis of the deposited data

How the results depend on the processing

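The median ratio of the 32 genes was 0.04, between 0.008 (length correction) and 0.20 (GC correction) under the alternatives. Counts of genes at least 2-fold higher (1) and lower (3) rest on few genes. With no filter on low counts 3 were higher. With a mean of at least 50 counts none (0) was higher. With 0.5 or 1 CPM added, 0 were higher and 1 lower, and with 5 CPM added 0 and 0. At 1.5-fold 7 were higher, against 6.87% of all counted genes, and 7 lower, against 12.9%. At 3-fold 0 were higher, against 0.713%, and 1 lower, against 1.57%. With DESeq2 or upper-quartile factors 2 were lower, since AGRN crossed the threshold. Single genes changed sign in 6 cases with the GC correction (HSPG2, ITGA3, ITGA7, ITGB8, LAMA5 and LAMB2), and ITGA5 did with the length correction and with library totals. Levels per kb from the longest transcripts differed beyond counting error for ITGA5, ITGA11 and LAMA1. No paired analysis was possible because each group has 1 library. With 1 library per group, a difference between cultures cannot be told apart from one between PKP2 and vector cells, and genes under about 50 counts have wide intervals.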

Other observations

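Of 12 counted genes for other integrin ligands, 1 was at least 2-fold lower in the PKP2 library, against 4.61% of all counted genes, and none higher, against 2.46%, with a median ratio of -0.08 and of 0.13 with the GC correction. THBS1, which encodes thrombospondin 1, was the lower one at -1.81, from 7 counts in the PKP2 library and 29 in the vector library. FBLN1, the gene of fibulin 1, stood at -0.81 (99 counts in the PKP2 library and 205 in the vector library) and CCN2, a matricellular ligand, at 0.75 (535 counts in the PKP2 library and 376 in the vector library). FN1, the gene of fibronectin, had 123047 counts in the PKP2 library and 135527 in the vector library, a ratio of 0.10 and 0.11 with the correction, and SPP1, the gene of osteopontin, 28427 in the PKP2 library and 38417 in the vector library, a ratio of -0.20 and -0.37 with the correction. FN1 and SPP1 were named after their values were seen.

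Of 6 counted genes for basement membrane assembly and crosslinking, 1 was at least 2-fold higher, against 2.46% of all counted genes, and 2 were lower, against 4.61%. All 3 rest on fewer than 100 counts in each library. PXDN, whose peroxidase crosslinks type IV collagen, had 70 counts in the PKP2 library and 31 in the vector library, a ratio of 1.41 (interval 0.78 to 2.07) and 1.56 with the GC correction. NTN1, the gene of netrin 1, had 28 counts in the PKP2 library and 93 in the vector library, a ratio of -1.50 (-2.16 to -0.87) and -1.09 with the correction, and PAPLN, the gene of papilin, 8 counts in the PKP2 library and 29 in the vector library, a ratio of -1.62. LOXL2, a lysyl oxidase that acts on type IV collagen, named after its value was seen, had 344 counts in the PKP2 library and 772 in the vector library, a ratio of -0.93 (-1.12 to -0.74) and -0.68 with the correction.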
